A study of Arabidopsis thaliana with 2 samples.

Results

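Lipid metabolism genes made up 39 of the 733 genes in the deposited table of mature inflorescence stems of *Arabidopsis thaliana*, and all 39 had lower transcript levels in the *cep1* library than in the WT library. They were chosen by annotation: a gene was taken when its biological process terms held "lipid metabolic process", and was left out when these also named a response to abscisic acid or to water deprivation, when its molecular function terms named DNA binding or transporter activity, or when it was described as an oleosin. The lipid term was carried by 47 genes, of which 8 were left out by these conditions, among them the transcription factor *WRI1*, the vacuolar processing enzyme *dVPE* and the caleosin *PXG3*. The term is broad, and for 10 of the 39 genes no clear role in lipid metabolism was known from the gene description (aspartic proteinases and an auxin-responsive protein, for instance). The other 29 genes were assigned a lipid role, which is less certain for some. Among them are 5 GDSL acyl hydrolases, a family with few known substrates, and *AAO4*, described as a benzaldehyde dehydrogenase.

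The study asked how CEP1, a papain-like cysteine protease of xylem cells, acts in the stem. Both genotypes were sampled as mature main stems labelled 25 days after flowering, from untreated greenhouse plants that the sample labels place at 20 °C with 16 h light and 8 h dark. The methods of the study give a different temperature, and which of them held for these plants was not settled. The mutant, *cep1*, is a T-DNA insertion line with the insertion in an exon of *CEP1*, and the WT is Columbia-0. The study describes *cep1* plants as developing later than the WT and being collected at the same developmental stage, on a later day. How this relates to the 25 days after flowering on both labels was not settled. Each genotype was 1 RNA sequencing library, so the differences had no replicate check, no test was made, and genotype, library and collection day cannot be told apart. *CEP1* itself was counted 15 times in *cep1* stems and 1269 times in WT stems (log2 ratio -6.48, 95% interval -7.32 to -5.75).

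The deposited table listed only genes that the authors had called lower in *cep1*. A lower level was therefore the condition for being listed, and the values below describe how far and where the lipid genes were lower. Genes that the table does not list were not analysed here. It held 690 of the 27444 nuclear protein-coding genes of RefSeq. With so small a share, few or no listed genes from a short pathway list is no result about that pathway. Library totals recovered from the deposited values were 22077141 reads for *cep1* and 20962056 reads for the WT. Log2 ratios are of read counts per library total, and their intervals, like those of shares, cover counting error only, since sequenced reads are not independent molecules. Where a gene had 0 reads in *cep1*, up to 3 reads, or 1.36e-05% of the library, are allowed by that count. In whole stems, fewer cells of a type and less RNA per cell cannot be told apart. The markers fixed for other cell types stood as follows: all 9 seed storage protein genes were in the table, with none read in *cep1* and 78936 reads in the WT in sum, and so were all 5 oleosin genes, with 152 and 14373 reads. Of 6 stem epidermis markers 1 was listed (*PDF1*, 570 and 1702 reads), and none of 8 secondary wall markers of xylem and none of 4 phloem markers were. A marker that is not listed may be unchanged, higher or unread in *cep1*. The study reports the secondary wall markers *CESA4*, *CESA7*, *CESA8*, *IRX9* and *IRX15* as higher in *cep1*. The part of the seed markers in the results below was not tested.

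Fatty acids are made in plastids, where acetyl-CoA carboxylase supplies malonyl units and the growing chain is carried on acyl carrier protein. In the endoplasmic reticulum the chains are lengthened by 3-ketoacyl-CoA synthases or joined to glycerol as membrane lipids and triacylglycerol, the oil that seeds store in oil bodies. The same broad term covers isoprenoids, from which carotenoids and several hormones are derived, and steroids. In stems the best known products are the waxes and cutin of the epidermis and membrane lipids, whereas large oil reserves are known from embryos. The RY core (letters CATGCA) is a promoter motif known from seed genes and bound by B3 transcription factors, and the G-box (CACGTG) is bound by bZIP and bHLH factors.

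The 39 genes were split at the floor of 3 reads in *cep1*, with 7 genes at or below it and 32 genes with 8 to 4969 reads there. Their promoter sequences, which had no part in the choice of genes, were set beside this split. Windows from 250 bases before to 50 bases after the RefSeq gene start (assembly TAIR10.1) were read for all 39 genes. The RY core stood on either strand in 6 of the 7 windows (85.7%), the exception being *GA20OX3*, and in 2 of the other 32 (6.25%). The floor is a counting limit and not a gap in the ratios, and other cuts were not tried. AT1G71691 (8 reads in *cep1*, log2 ratio -6.20) and AT5G04530 (21 reads, -5.24) stood above it and lacked the motif. In 4 of the 7 the motif lay before the gene start. Counted anywhere in the window, it was in 9.72% of the 27444 windows of all nuclear protein-coding genes. The 4 windows of the first group with the motif before the gene start are shown here, followed by that of *IPS1*, the lipid gene with most reads in the WT, as a window with several G-boxes. Each is written 5′ to 3′ in the direction of the gene. Capitals mark the RY core, which reads TGCATG where it lies on the other strand, and, in *IPS1* alone, also the G-box.
FAE1, chr4:16493955-16494254, plus strand: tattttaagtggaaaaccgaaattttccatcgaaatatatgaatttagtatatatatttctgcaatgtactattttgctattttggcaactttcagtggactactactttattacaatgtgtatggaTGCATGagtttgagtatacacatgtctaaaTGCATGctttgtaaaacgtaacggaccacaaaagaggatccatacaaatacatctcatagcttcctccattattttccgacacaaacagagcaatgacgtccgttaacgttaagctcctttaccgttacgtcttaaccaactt
PXG1, chr4:13475322-13475621, minus strand: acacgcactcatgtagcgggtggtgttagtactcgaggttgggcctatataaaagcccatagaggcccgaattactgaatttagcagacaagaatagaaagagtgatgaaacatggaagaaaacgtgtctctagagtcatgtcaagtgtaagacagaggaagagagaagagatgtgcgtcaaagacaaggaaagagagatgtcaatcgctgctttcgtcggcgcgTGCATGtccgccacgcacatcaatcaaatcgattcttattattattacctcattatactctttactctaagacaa
AT5G22810, chr5:7621252-7621551, plus strand: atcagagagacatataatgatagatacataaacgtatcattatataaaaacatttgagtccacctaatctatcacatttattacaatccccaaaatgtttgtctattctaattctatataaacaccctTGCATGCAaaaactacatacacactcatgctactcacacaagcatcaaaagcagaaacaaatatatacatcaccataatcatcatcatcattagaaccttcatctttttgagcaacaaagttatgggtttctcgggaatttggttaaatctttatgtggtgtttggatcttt
AT1G54860, chr1:20458582-20458881, minus strand: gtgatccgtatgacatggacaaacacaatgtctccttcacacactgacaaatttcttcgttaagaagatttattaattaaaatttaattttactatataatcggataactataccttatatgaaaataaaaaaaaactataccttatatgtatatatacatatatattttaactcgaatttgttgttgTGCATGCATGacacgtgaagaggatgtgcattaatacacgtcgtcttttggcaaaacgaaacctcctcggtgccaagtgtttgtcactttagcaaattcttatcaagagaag
IPS1, chr4:18471999-18472298, minus strand: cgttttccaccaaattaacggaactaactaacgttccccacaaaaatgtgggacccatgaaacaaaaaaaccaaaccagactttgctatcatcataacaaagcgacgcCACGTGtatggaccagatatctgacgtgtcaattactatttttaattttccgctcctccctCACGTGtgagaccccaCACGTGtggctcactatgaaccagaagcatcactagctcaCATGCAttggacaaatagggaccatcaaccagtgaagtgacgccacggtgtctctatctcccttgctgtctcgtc
In *FAE1* the motif began 123 and 93 bases before the annotated start, which in RefSeq is the start of the coding sequence, as it is in AT5G22810. In AT5G22810 and AT1G54860 the capitals are runs of overlapping matches, counted as 2 and 3 matches because the motif was read on both strands. *PXG1* and *IPS1* had it 25 bases before the start. In *ACP5*, whose annotated start is also that of the coding sequence, the match lay at position 30, inside the coding sequence. In *HSD6*, with 29 bases before the coding sequence, it began at position 27 and ran into the coding sequence. Of the 2 matches among the other 32 genes, that of *GA2OX2* also lay after the start, at position 32.

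The same split was seen in the table as a whole: of the 82 listed genes with at most 3 reads in *cep1* and a window, 46 (56.1%) held the RY core, against 73 of the other 608 (12%). The lipid genes are included in these numbers. The G-box was in 10 of the 39 lipid gene windows (25.6%), in 14.3% of the 690 windows of the table and in 7.68% of all windows, and it was in 2 of the 7 genes with at most 3 reads (28.6%) and 8 of the other 32 (25.0%). The AW-box, the motif bound by WRI1, was in 8 lipid gene windows (20.5%) and in 11.9% of all windows; it was in 3 of the 7 (*ACP5*, *PXG1* and *HSD6*) and in 5 of the other 32 (15.6%). Over the table it was in 13.2% of the windows, and in 20.7% of the 82 windows of genes with at most 3 reads in *cep1*. The evening element (AAAATATCT) was in 1 lipid gene window, that of AT1G28610, and in 2.82% of all windows. A match describes the letters of the window and not a bound site.

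**Figure D1:**
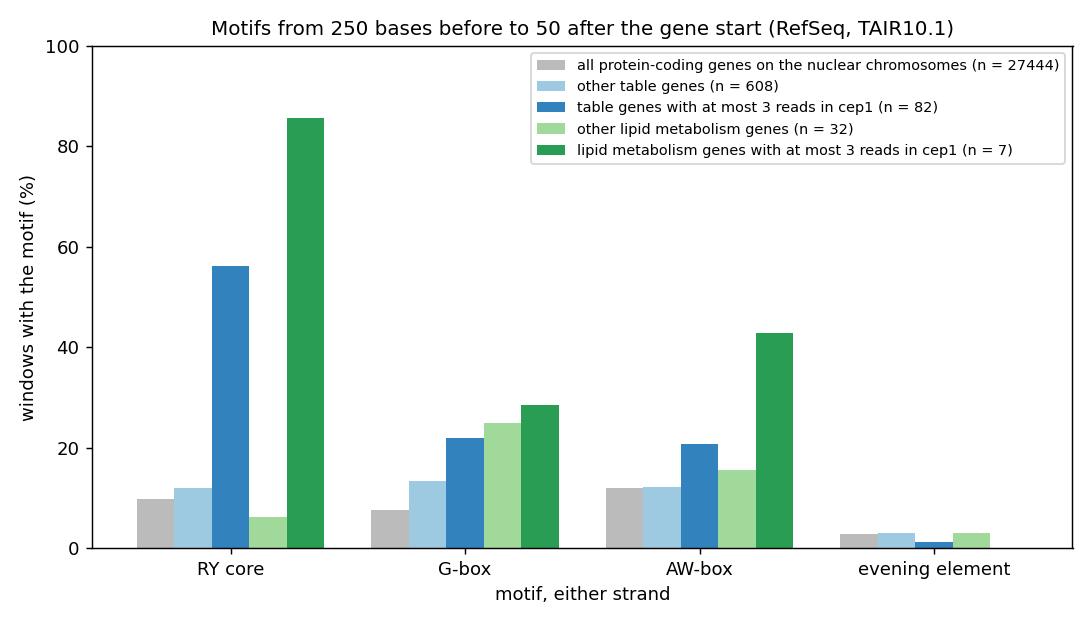
Share of promoter windows (%) that hold each of 4 motifs on either strand, for all nuclear protein-coding genes, for the genes of the table and for the lipid metabolism genes, the latter each split at 3 reads in *cep1*. The RY core bar of the 7 lipid genes with at most 3 reads in *cep1* stands at 85.7%, that of the other 32 at 6.25%. Matches after the gene start are included.

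The size of the differences over the 39 genes was close to that over the table. The median log2 ratio was -2.23 (quartiles -4.55 and -1.59) for the lipid genes and -2.10 (-3.60 and -1.58) for all 733 genes, with genes without reads in *cep1* set at their bound against 3 reads. All 39 lipid genes, like 100% of the table, had a log2 ratio of -1 or below, which listing required. A ratio of -2 or below was found for 21 (53.8%, with 53.8% of the table), and of -3 or below for 14 (35.9%, with 33.0% of the table). No reads in *cep1* were counted for 4 lipid genes (10.3%, with 8.32% of the table), and at most 3 reads for 7 (17.9%, with 12.1% of the table). These shares lie near those of the table and are no result about the lipid genes as a list.

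Lipid genes received 23641 reads in *cep1*, which was 0.107% of that library (0.1057 to 0.1085%, Wilson 95% interval). In the WT they received 79979 reads, or 0.382% (0.3789 to 0.3842%). The log2 ratio of these sums was -1.83 (-1.85 to -1.81), and that of all 733 genes was -2.05. Per length, the lipid genes were listed at 9.64 to 484 FPKM in the WT, with a median of 32.7 FPKM (49.4 FPKM over the table). Among the 35 lipid genes with reads in both libraries, genes with a higher WT level had a smaller difference (Spearman's rho 0.44 between WT FPKM and log2 ratio; 0.34 over the 672 such genes of the table). Both values of each point come from the same pair of libraries and the WT level enters both, so this is a description. A gene with few reads must also differ more to be called lower, so the listing itself can give such a relation. The 7 genes with at most 3 reads in *cep1* had a median of 15.4 FPKM in the WT and the other 32 a median of 42.0 FPKM, to which the same limit applies. On chromosome 1 lay 18 lipid genes (46.2%), and 212 genes of the table (28.9%).

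**Figure D2:**
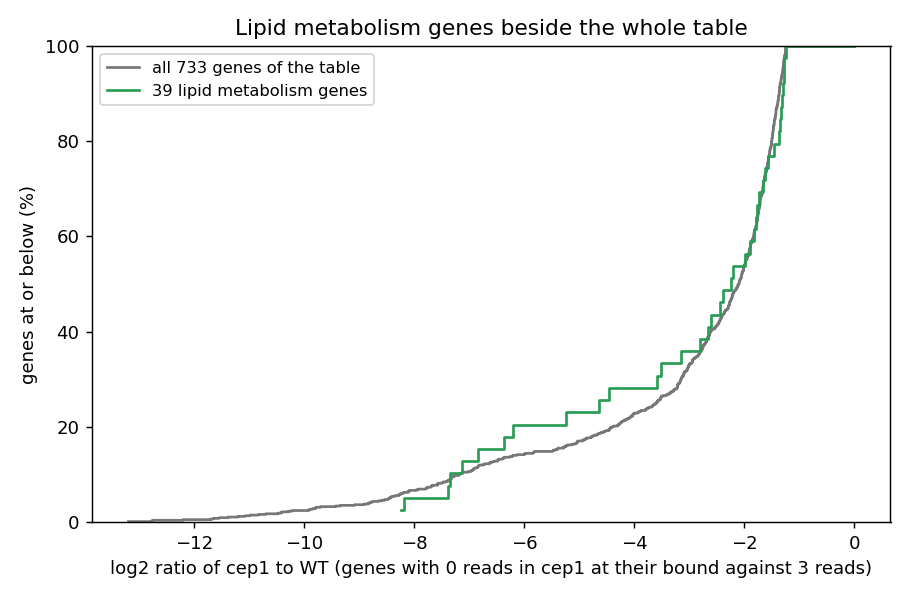
Cumulative share of genes (%) at or below each log2 ratio of *cep1* to WT, for the 39 lipid metabolism genes and for all 733 genes of the table, genes without reads in *cep1* being placed at their bound against 3 reads. The curves run near each other, with medians of -2.23 and -2.10 and first quartiles of -4.55 (lipid genes) and -3.60 (table).

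Fatty acid synthesis was represented by 5 genes, among which the 2 listed acyl carrier proteins differed widely. *ACP5*, a plastid acyl carrier protein, was read 2 times in *cep1* and 553 times in WT stems (0.216 and 62.8 FPKM), a log2 ratio of -8.19 (-11.24 to -6.33). *ACP1*, another acyl carrier protein, had 584 and 1749 reads (36.7 and 116 FPKM), a log2 ratio of -1.66 (-1.79 to -1.52). The intervals did not overlap, and the *cep1* library thus held almost no *ACP5* transcript while keeping *ACP1* at about 37 FPKM. *BCCP2*, the biotin carrier subunit of plastid acetyl-CoA carboxylase, lay between them with 103 and 866 reads (3.39 and 30.0 FPKM), a log2 ratio of -3.15 (-3.46 to -2.85). The acyl-activating enzymes *AAE13*, which makes malonyl-CoA from malonate, and *AAE16*, a probable plastid enzyme, had log2 ratios of -1.90 and -1.29. Of 16 genes in a list of fatty acid synthesis, 2 were in the table: *BCCP2*, and *WRI1*, a transcription factor that activates the pathway in seeds, with 111 and 705 reads and a log2 ratio of -2.74 (-3.04 to -2.45).

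Genes of very-long-chain acyl elongation had the lowest summed ratio of the 9 roles, with 54 and 1903 reads (*cep1* and WT) over 3 genes, a log2 ratio of -5.21 (-5.63 to -4.82). *FAE1* (*KCS18* in RefSeq), the 3-ketoacyl-CoA synthase that makes the very long chains of seed oil, had no reads in *cep1* stems against 461 in WT stems (13.4 FPKM), at least 162-fold lower against the floor of 3 reads. A further 3-ketoacyl-CoA synthase, AT5G04530, is called *KCS21* in the deposited table and *KCS19* in RefSeq; it had 21 and 756 reads (0.509 and 19.3 FPKM), a log2 ratio of -5.24 (-5.95 to -4.62). *CER26*, an acyltransferase-like protein required for the longest wax precursors, had 33 and 686 reads (0.910 and 19.9 FPKM), a log2 ratio of -4.45 (-5.00 to -3.95). All 3 were thus under 1 FPKM in *cep1* and between 13.4 and 19.9 FPKM in the WT. Of 20 listed elongation genes only *FAE1* and *KCS21* were in the table, and none of 18 cutin and wax genes or of 8 suberin genes was. The cutin and wax list did not include *CER26*. How the counting treated reads shared by members of the KCS family is not given in the sources used here.

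Oil storage was represented by a pair of genes with unlike ratios. *PXG1* (*ATS1* in RefSeq), a caleosin with peroxygenase activity on oil bodies, was likewise unread in *cep1*, with 475 reads in WT stems (21.3 FPKM), at least 167-fold lower. AT1G48300, an unknown protein in the deposited table and the soluble diacylglycerol acyltransferase *DGAT3* in RefSeq, had 4969 and 11364 reads (201 and 484 FPKM). Its log2 ratio of -1.27 (-1.32 to -1.22) was among the 3 nearest to 0, and it had the highest FPKM of all 39 genes in both libraries. It was the only one of 11 triacylglycerol assembly genes in the table. Of the 14 seed storage protein and oleosin markers given above, 12 had 0 reads in *cep1*. Every listed gene was lower by selection, so a direction shared with *PXG1*, *FAE1* or *ACP5* carries no information. A link between them was not tested.

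**Figure D3:**
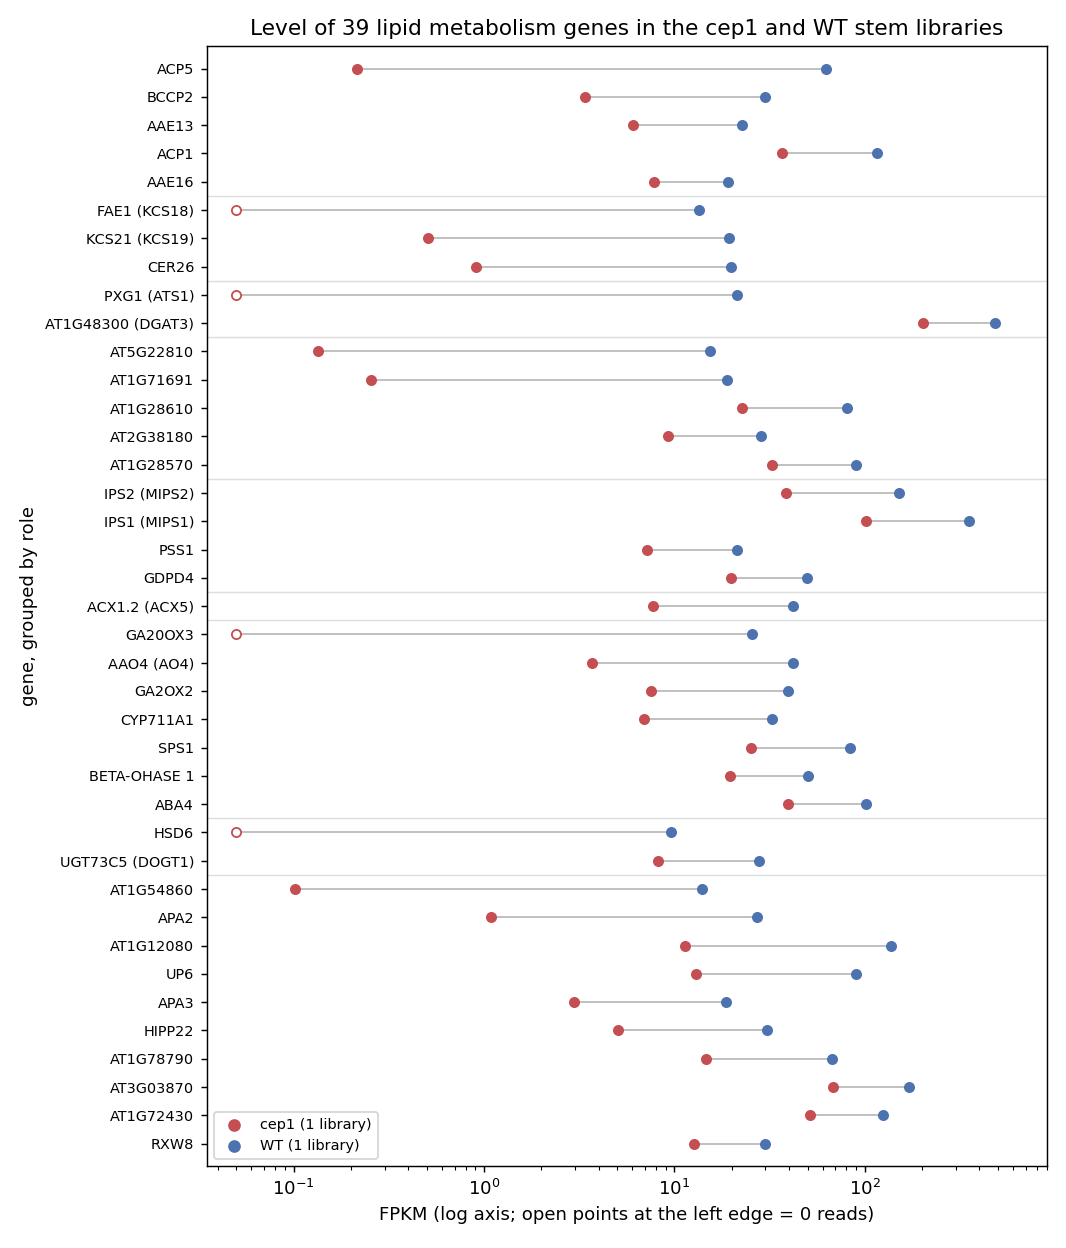
Level (FPKM, log axis) of each of the 39 lipid metabolism genes in the single *cep1* library (red) and the single WT library (blue), grouped by role, with open points at the left edge for 0 reads. *DGAT3* (AT1G48300) is highest in both libraries (201 and 484 FPKM), and all 3 elongation genes are under 1 FPKM in *cep1*.

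The GDSL acyl hydrolases, esterases whose substrates are known for few members, showed both kinds of ratio within 1 family of 5 genes. AT5G22810 had 3 and 327 reads in *cep1* and WT (0.134 and 15.4 FPKM), a log2 ratio of -6.84. AT1G71691 had 8 and 559 reads (0.255 and 18.8 FPKM), a log2 ratio of -6.20 (-7.42 to -5.21). The other 3 members kept 239 to 930 reads in *cep1*, with log2 ratios from -1.82 to -1.46. Among them AT1G28570 had the highest level, with 930 and 2428 reads (32.5 and 89.4 FPKM). AT1G28570 and AT1G28610 have nearby locus numbers on chromosome 1 and belong to the same family, and the division of any shared reads between them is uncertain.

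Inositol and phospholipid genes had the most reads of any role and, among the roles with more than 1 gene, the narrowest range of ratios. Inositol-3-phosphate synthase makes the inositol that goes into phosphatidylinositol and into phytate. *IPS1* (*MIPS1*) had 4342 and 14273 reads in *cep1* and WT (102 and 354 FPKM), a log2 ratio of -1.79 (-1.84 to -1.74). *IPS2* (*MIPS2*), its isozyme, had 1681 and 6315 reads (38.4 and 152 FPKM), a log2 ratio of -1.98 (-2.06 to -1.91). The level of *IPS1* was above that of *IPS2* in both libraries, and the ratios differed by more than counting error. *PSS1*, a phosphatidylserine synthase, and *GDPD4*, a glycerophosphodiester phosphodiesterase, had log2 ratios of -1.56 and -1.33. None of 14 loci in the list of galactolipid and phosphate-starvation remodelling, and none of 15 sphingolipid genes, was in the table.

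The role of beta-oxidation was given to 1 gene, *ACX1.2* (*ACX5*), a peroxisomal acyl-CoA oxidase, which catalyses the first step of that pathway. The annotation term "lipid catabolic process" was wider and was carried by 8 of the 39 genes, the 5 GDSL genes, *UP6* and *RXW8* besides *ACX1.2*. It had 403 and 2085 reads in *cep1* and WT (7.68 and 41.8 FPKM), a log2 ratio of -2.45 (-2.60 to -2.29). The list of lipid breakdown held 17 genes, of which *ACX1.2* and *ICL* were in the table; *ICL*, the isocitrate lyase of the glyoxylate cycle, did not carry the lipid term and had 45 and 366 reads (log2 ratio -3.10, -3.58 to -2.65).

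Isoprenoid, carotenoid and hormone genes numbered 7, with 3080 and 12924 reads in sum (*cep1* and WT). *AAO4* was counted here, although its deposited description names none of these pathways. *GA20OX3*, a gibberellin 20-oxidase acting late in gibberellin synthesis, had 862 reads in WT stems (25.6 FPKM) and none in *cep1* stems, at least 303-fold lower and the largest such bound among the 39 genes. *GA2OX2*, a gibberellin 2-oxidase that inactivates the hormone, had 229 and 1138 reads (7.56 and 39.6 FPKM), a log2 ratio of -2.39 (-2.60 to -2.18). A gene for making and a gene for removing active gibberellin were thus both lower, and they were the only members of a list of 21 gibberellin genes in the table. *AAO4*, an aldehyde oxidase (benzaldehyde dehydrogenase in the deposited description), had 335 and 3625 reads (3.70 and 42.1 FPKM), a log2 ratio of -3.51 (-3.68 to -3.35). *CYP711A1* (*MAX1*), a cytochrome P450 of strigolactone synthesis, and *SPS1*, a solanesyl diphosphate synthase, had log2 ratios of -2.23 and -1.73.

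Carotenoid genes were nearer to 0. *ABA4*, required for neoxanthin synthesis, had 890 and 2155 reads (39.4 and 101 FPKM), a log2 ratio of -1.35 (-1.46 to -1.24). *BETA-OHASE 1*, a beta-carotene hydroxylase, had 468 and 1140 reads (19.6 and 50.4 FPKM), a log2 ratio of -1.36 (-1.52 to -1.20). The intervals of the pair overlapped, and 2 of the 18 carotenoid genes listed were in the table. None of 13 jasmonate synthesis genes was, in a list that held no acyl-CoA oxidase such as *ACX1.2*.

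Steroid genes numbered 2. *HSD6*, a hydroxysteroid dehydrogenase-like protein of the family that includes the steroleosins of oil bodies, had 236 reads in WT stems (9.64 FPKM) and none in *cep1* stems, at least 82.9-fold lower. *UGT73C5* (*DOGT1*), a glycosyltransferase that inactivates brassinosteroids by glucosylation, had 296 and 953 reads (8.19 and 27.8 FPKM), a log2 ratio of -1.76 (-1.95 to -1.57). *HSD6* was the only one of 23 sterol and brassinosteroid loci in the table.

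**Figure D4:**
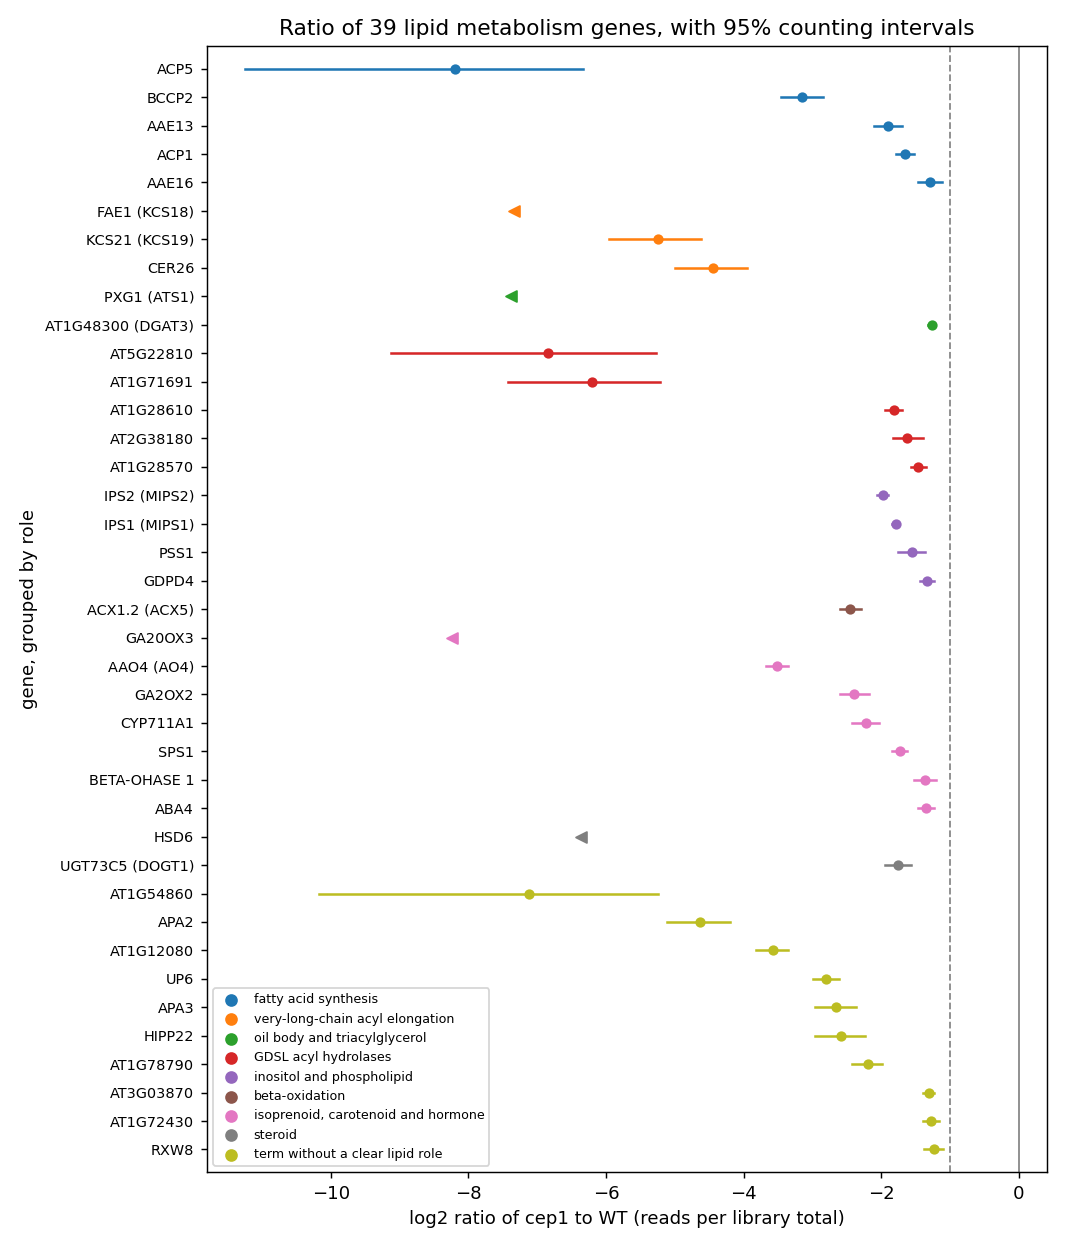
Log2 ratio of *cep1* to WT for each of the 39 lipid metabolism genes, coloured by role, with 95% counting intervals as lines; arrowheads mark the upper limit against 3 reads for the 4 genes without reads in *cep1*, and the dashed line is at -1. The inositol and phospholipid genes lie between -1.98 and -1.33, and the elongation genes at -4.45 or lower.

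The 10 genes that carry the term without a clear lipid role had 4188 and 14549 reads (*cep1* and WT), a log2 ratio of -1.87 (-1.92 to -1.82), close to that of all 39 genes. AT1G54860, a GPI-anchored glycoprotein, was the 1 of these with at most 3 reads in *cep1*, with 2 and 264 reads (0.101 and 14.0 FPKM) and a log2 ratio of -7.12 (-10.17 to -5.25). *APA2*, an aspartic proteinase, followed with 43 and 1017 reads (1.09 and 27.1 FPKM), a log2 ratio of -4.64. AT1G12080, described as related to a vacuolar calcium-binding protein, had 163 and 1853 reads (11.4 and 137 FPKM), a log2 ratio of -3.58. A further 3 were among the 10 lipid-term genes with the highest WT level: AT3G03870, an unknown protein (170 FPKM, log2 ratio -1.31), AT1G72430, of the SAUR family (125 FPKM, -1.28), and *UP6*, an unknown protein (90.4 FPKM, -2.81). *RXW8*, a CSC1-like membrane protein, had the ratio nearest to 0, at -1.24, with 685 and 1541 reads. Without these 10 genes, the 29 with a lipid role had a median log2 ratio of -1.98, and 6 of them had at most 3 reads in *cep1*.

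Across roles, the 7 genes with at most 3 reads in *cep1* belonged to 7 of the 9 roles, and summed to 7 reads in *cep1* stems against 3178 in WT stems. RefSeq notes were present for 20 of the 39 genes, and those of 5 (*PXG1*, *AAO4*, *IPS1*, *IPS2* and *ACP1*) held a word for seeds, seed tissues or siliques. Only the word was matched, which does not make the gene specific to seeds. Of these 5 only *PXG1* had at most 3 reads in *cep1*. Of the 12 pathway lists, 7 had a gene in the table, with 12 genes in all, of which 10 were among the 39. Given the small share of all genes that the table lists, these counts are no result about the pathways.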

How the data were processed

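Total RNA of mature stems was sequenced as 1 *cep1* and 1 WT library. The submitters' processing notes name TopHat2 2.0.12, Bowtie2 2.2.3 and HTSeq 0.6.1; the genome build is not given in the sources used here. The authors deposited unnormalized read counts for each gene, FPKM (counts scaled to the length of the gene and to library size) and their normalized read counts, a signal 20.3 (*cep1*) and 22.8 (WT) times smaller than the counts. The deposited log2 fold changes, p-values and adjusted p-values of the authors' comparison were not used.

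Library totals were the median of totals given by count, length and FPKM for genes with at least 100 reads. Log2 ratios have exact (Clopper-Pearson) 95% intervals, tested on simulated Poisson counts, which hold counting error only. Shares have Wilson intervals, which were not tested in this way. With 0 reads in *cep1*, the fold is a bound against 3 reads and not the limit of the exact interval. The upper 95% limits of the exact log2 intervals are nearer 0, at -7.94 for *GA20OX3*, -7.08 for *PXG1*, -7.03 for *FAE1* and -6.06 for *HSD6*. In the WT, deposited FPKM lay within 1% of count over length and total for 28 of 39 genes and were at most 1.47 times larger for the others. With 1 library per genotype no edgeR test could be fitted.

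Named genes were those with at most 3 reads in *cep1*, the 10 highest in WT FPKM, the 5 with the lowest log2 ratio at 20 or more reads in both libraries, the 3 nearest 0, the highest of each role and those in pathway lists; others were named to complete their role. Members and lists were chosen with earlier results of these data known. All 39 genes matched RefSeq (TAIR10.1) by locus; 6 had the same start and end as deposited. Python 3.11.15, numpy 2.4.6, pandas 2.3.3, scipy 1.17.1 and matplotlib 3.10.9 were used.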

Additional observations from a re-analysis of the deposited data

How the results depend on the processing

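The authors' normalized read counts moved every log2 ratio up by 0.24. This gave a median of -1.99 for the lipid genes and intervals reaching above -1 for 8 genes (0 with library totals). Deposited FPKM without a pseudocount gave a ratio for only 35 of the 39 genes. All ratios obtained were at -1 or below under each scaling and pseudocount tried. A ratio of -1 was the study's own limit for listing, so this is no check of the result. The median was -1.98 over genes with reads in both libraries, -1.82 over the 31 genes reaching 20 reads in each library, and -1.86 without the 7 genes with at most 3 reads in *cep1*, since these settings remove the lowest ratios. Under that read limit, 13 genes were at -2 or below and 6 at -3 or below, against 21 and 14. The ratio of summed reads was -1.78 without the 7 genes. The exact term and the 8 left-out genes put back changed no count by over 1.5 times. No ratio changed sign. No paired analysis was possible because each genotype had 1 library, and no replicate could be left out. Genes with few reads in *cep1* have wide intervals, and depth limits how far below the WT they can be placed.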
